A study of Mus musculus with 24 samples.

Results

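8 genes of Schwann cells and peripheral nerve were followed in *M. gastrocnemius* of 24 mice: *Mbp*, *Pmp22*, *Mag*, *Prx*, *Sox10*, *S100b*, *Pmp2* and *Mal*. They were chosen by their log2 ratios in earlier results of the same arrays, and taken by name from the probe annotation of the array, where 11 of 55681 probes carry the name of 1 of these 8 genes, out of 34797 distinct names. Because of that choice, their difference between the groups and their likeness between arrays are given as descriptions, with no test. The mice were male C57BL/6JOlaHsd that arrived at 10 weeks of age and had received a diet with 40% of energy from fat for 6 weeks. All were fasted, after which 12 breathed air with 20.9% oxygen (Norm) and 12 breathed air with 12% oxygen (Hypox) for 6 h at normal pressure, with the muscle taken directly afterwards. Both groups thus share the diet, the fast and the housing. Each array carried the RNA of 1 muscle labelled with Cy5 and a pool of all samples labelled with Cy3, and the value of a gene is the log2 ratio of Cy5 over Cy3, so that 0 is the level of the pool.

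A muscle holds branches of its nerve between the fibers, and RNA of whole muscle includes that of the Schwann cells wrapped around these axons. Schwann cells that pair with a large axon wind their membrane into compact myelin, which holds MBP, PMP22, PMP2 and MAL. MAG lies where the innermost wrap faces the axon, and periaxin, the product of *Prx*, ties the outer membrane of the Schwann cell to its basal lamina. SOX10 is the transcription factor that sets Schwann cell identity and drives myelin genes together with EGR2, and the calcium-binding protein S100B is a common stain for Schwann cells. Not all of these genes belong to nerve alone, as fibroblasts also make *Pmp22* and adipocytes also make *S100b*.

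Of the 8 genes, 6 were bright enough to enter the fit, which required a mean Cy5 signal over 2 times the local background and a missing value on at most 4 arrays. *Pmp22* was measured by 2 such probes, with signals 15.1 and 5.72 times the background, and *Prx*, *Mal* and *S100b* by 1 each, at 6.93, 3.69 and 3.11 times. *Sox10* (2.20 times) and the brightest of 3 *Mbp* probes (2.13 times) lay just inside the limit. The probe for *Mag* (1.64 times) and a further *Mbp* probe (1.62 times) lay just outside it. The single *Pmp2* probe, at 1.10 times the background, and the last *Mbp* probe were not well above background on any array in either channel, so no fold is given for them. The scanner software called *Pmp22* and *Prx* well above background on 21 of 24 arrays each, *Mal* on 16, *S100b* on 15, *Sox10* on 14, *Mbp* on 10 and *Mag* on 4. Of 6 genes of oligodendrocytes, the myelinating cells of the brain, 4 were not well above background on any array and 1, *Ermn*, passed the brightness limit. *Ermn* was well above background on 24 arrays and differed between the groups by -0.60 on the log2 scale (SE 0.17, limma's unadjusted *P*-value 0.0017, adjusted 0.126). Its correlation with the mean of the nerve genes, described below, was -0.09. In RNA of whole muscle, fewer Schwann cells and less RNA per Schwann cell cannot be told apart.

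There were 6 slides with 4 of the arrays apiece, 2 of each group. The slides differed in brightness, and on the dimmest, slide 1, between 9.42% and 16.2% of the spots were well above background in Cy5, against up to 37.8% on the brightest. Since each slide holds both groups, differences are also given within slides. 2 arrays stood apart in the nerve genes and are named throughout, Norm 12, the highest, and Hypox 2, the lowest. Each array is 1 mouse.

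*Mal*, *S100b* and *Prx* are the genes whose levels ran most closely together between arrays, and the 250 bases before their RefSeq start sites in GRCm38.p6 are shown for that reason. Capitals mark CCAAT on either strand (ATTGG on the other), the motif of the promoter factor NF-Y, which 33.8% of all 32851 RefSeq promoter windows of this length hold. The search also covered the letters that SOX factors bind, ACAAT and ACAAAG with their reverse complements ATTGT and CTTTGT, which would also be in capitals.
*Mal*, chr2:127656696-127656945, minus strand: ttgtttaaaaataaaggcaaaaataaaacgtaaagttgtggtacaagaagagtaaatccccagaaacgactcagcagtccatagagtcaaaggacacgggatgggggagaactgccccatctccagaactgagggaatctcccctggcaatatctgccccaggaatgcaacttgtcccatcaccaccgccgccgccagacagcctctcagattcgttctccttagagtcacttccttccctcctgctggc
*S100b*, chr10:76253586-76253835, plus strand: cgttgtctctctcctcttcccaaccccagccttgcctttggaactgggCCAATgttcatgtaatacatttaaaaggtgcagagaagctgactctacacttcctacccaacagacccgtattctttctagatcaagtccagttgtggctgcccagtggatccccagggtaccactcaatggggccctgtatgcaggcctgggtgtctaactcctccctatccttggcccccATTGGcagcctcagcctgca
*Prx*, chr7:27499074-27499323, plus strand: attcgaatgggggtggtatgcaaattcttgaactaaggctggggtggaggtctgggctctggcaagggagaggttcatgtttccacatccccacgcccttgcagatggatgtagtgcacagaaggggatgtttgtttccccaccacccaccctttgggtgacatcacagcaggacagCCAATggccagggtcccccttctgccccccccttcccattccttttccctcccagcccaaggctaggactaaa
The *S100b* window holds CCAAT at 198 bases before the start and, on the other strand, at 16 bases before it. The *Prx* window holds it at 69 bases before the start, and the *Mal* window does not hold it. None of these 3 windows has a SOX-type match, nor do those of the 4 *Pmp22* starts, while 38.8% of all windows have one. *Mag*, the other gene searched, has an ACAAAG match on the other strand, 62 or 121 bases before 2 of its 3 starts. *Mbp* was left out of the search, so whether it holds a match is not given. *Sox10* and *Pmp2* had no window to search.

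*Pmp22* and *Prx* were the genes with the largest difference between the groups. The brightest *Pmp22* probe (mm9 chr11:62972989-62973048) ran from -0.94 in Norm 5 to 0.35 in Norm 3, with a median of 0.04, in the Norm group. In the Hypox group it ran from -1.57 in Hypox 2 to 0.23 in Hypox 8, with a median of -0.53. The groups overlapped, with 9 of 12 Hypox arrays within the Norm range and 9 below the Norm median. The Norm mean was -0.09 ± 0.42 and the Hypox mean -0.50 ± 0.56 (SD over 12 arrays), which is a log2 difference of -0.41 (SE 0.19, 95% interval -0.79 to -0.02). The second *Pmp22* probe (mm9 chr11:62971862-62971921) gave a close value, with Norm from -0.57 to 0.77 (median 0.13) and Hypox from -0.65 to 0.10 (median -0.22). Here all 12 Hypox arrays lay below the Norm median, and the log2 difference was -0.35 (SE 0.10, 95% interval -0.56 to -0.14). Both probes were lower in Hypox on 6 of 6 slides, with differences of -0.90 to -0.05 for the first and of -0.54 to -0.11 for the second.

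*Prx* (mm9 chr7:28304999-28305058) ran from -0.66 in Norm 5 to 0.80 in Norm 12 in the Norm group, with a median of -0.11. In Hypox it ran from -0.84 in Hypox 2 to 0.20 in Hypox 5, with a median of -0.35. The groups overlapped, with 11 of 12 Hypox arrays within the Norm range and 10 of 12 below the Norm median. The Norm mean was -0.06 ± 0.35 and the Hypox mean -0.34 ± 0.27 (SD over 12 arrays), which is a log2 difference of -0.28 (SE 0.12, 95% interval -0.53 to -0.03). It was lower in Hypox on 6 of 6 slides, with a difference of -0.0038 on slide 2 and of -0.75 on slide 6, which holds Norm 12.

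**Figure D1:**
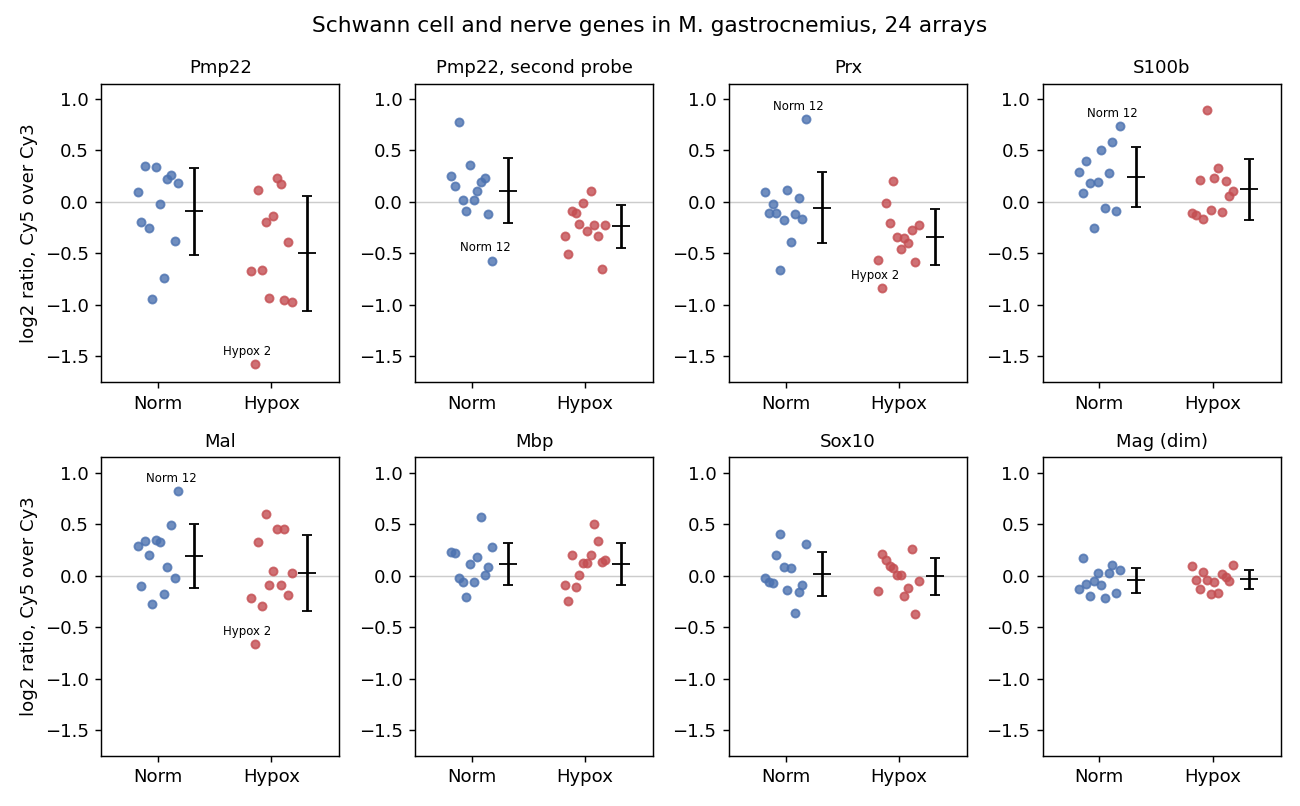
Log2 ratio of Cy5 over Cy3 (vertical axis) on each of the 24 arrays for the 6 nerve genes tested, the second *Pmp22* probe and the dim *Mag* probe, with Norm in blue and Hypox in red; black bars are the mean and SD of 12 arrays. The groups overlap in every panel, and Hypox 2 is the lowest array for *Pmp22*, *Prx* and *Mal* while Norm 12 is the highest for *Prx* and *Mal*.

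*Mal* and *S100b* showed smaller differences that were lower on 4 of 6 slides each. *Mal* (mm9 chr2:127458976-127459035) spanned -0.28 to 0.83 on the Norm arrays (median 0.25) and -0.67 to 0.60 on the Hypox arrays (median -0.03), and the log2 difference was -0.16 (SE 0.13, 95% interval -0.44 to 0.11). *S100b* (mm9 chr10:75723783-75723842) spanned -0.26 to 0.74 on the Norm arrays (median 0.24) and -0.16 to 0.89 on the Hypox arrays (median 0.08), and the log2 difference was -0.12 (SE 0.12, 95% interval -0.35 to 0.12). On slides 2 and 4 both genes were higher in Hypox, by 0.31 and 0.32 for *Mal* and by 0.27 and 0.05 for *S100b*. Hypox 5, on slide 2, was the highest Hypox array for both genes and for *Prx*.

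*Sox10* and *Mbp* lay near 0 in both groups. *Sox10* (mm9 chr15:78985518-78985577) spanned -0.36 to 0.41 on the Norm arrays and -0.38 to 0.26 on the Hypox arrays, and the log2 difference was -0.02 (SE 0.08, 95% interval -0.19 to 0.15), lower on 3 slides and higher on 3. The brightest *Mbp* probe spanned -0.20 to 0.57 on the Norm arrays and -0.25 to 0.50 on the Hypox arrays, with a log2 difference of -0.00079 (SE 0.09, 95% interval -0.18 to 0.17). The next *Mbp* probe, which is dimmer, differed by -0.14 (SE 0.08, 95% interval -0.30 to 0.02). These 2 probes of 1 gene correlated at r = 0.11 over the 24 arrays. *Mag* (mm9 chr7:31684202-31684261) differed by 0.01 (SE 0.05, 95% interval -0.09 to 0.11). Its arrays lay between -0.22 and 0.17 in Norm and between -0.18 and 0.11 in Hypox, the narrowest range of the genes shown, at a signal close to background on most arrays.

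Of the genes past the brightness limit, 6 of 6 had a lower mean in Hypox, with a median log2 difference of -0.14, while the median of all 9186 genes was 0.03 and 41.3% of them were lower. The 6 genes were chosen by their log2 ratios in these arrays, so this count was favoured in advance. It takes in *Mbp* at -0.00079 and *Sox10* at -0.02. The count was 6 of 6 in the Cy5 channel alone and in the deposited values, 5 of 6 in the scanner software's processed signals and 3 of 6 when arrays were centred on their median in place of loess, a scaling that shifted the median of all genes to 0.25, gave the 6 genes a median of 0.02 and left -0.07 (SE 0.48) for *Pmp22* and -0.03 (SE 0.33) for *Prx*. These values rest in part on the 2 arrays named above: without Norm 12 the median was -0.09 and without Hypox 2 it was -0.10. Without both, the log2 difference was -0.28 (SE 0.18) for *Pmp22*, -0.16 (SE 0.10) for *Prx*, -0.04 (SE 0.11) for *Mal* and -0.05 (SE 0.11) for *S100b*.

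**Figure D2:**
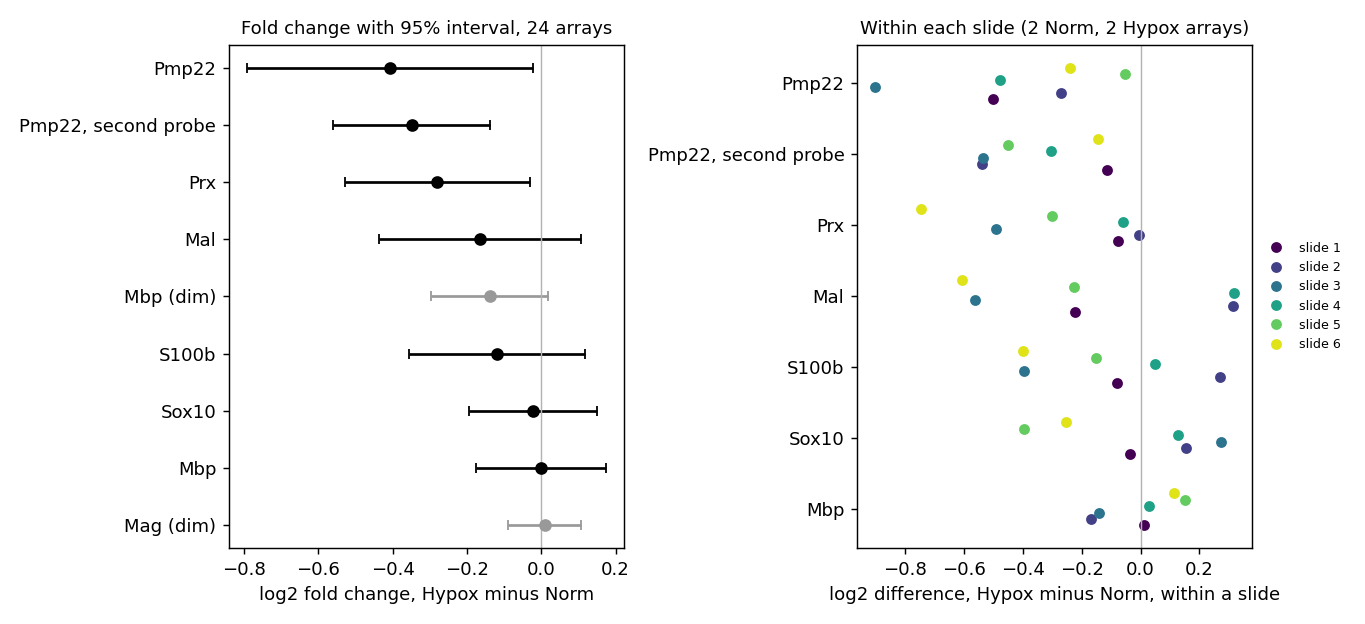
Left, log2 fold change of Hypox minus Norm (horizontal axis) with its 95% interval for each probe above background on at least 1 array, black for those past the brightness limit and grey for dimmer ones. Right, the log2 difference within each of the 6 slides, where both *Pmp22* probes and *Prx* lie left of 0 on every slide and the other genes lie on both sides.

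Between arrays, 4 of the 6 nerve genes moved together and 2 did not when each gene is given by its brightest probe, a division seen in the values and not set beforehand. *S100b* and *Mal* correlated at r = 0.87 over the 24 arrays, *Prx* and *Mal* at 0.81, and *Prx* and *S100b* at 0.78. *Pmp22* correlated with *Mal* at 0.67, with *S100b* at 0.59 and with *Prx* at 0.59. *Mbp* correlated with these 4 genes at between 0.17 and 0.43, and *Sox10* at between -0.38 and 0.10. For *Mbp* this depended on the probe, as its next probe, dimmer than the limit, correlated with *Prx* at 0.61, with *Mal* at 0.58, with *Pmp22* at 0.37 and with *S100b* at 0.36, and at 0.60, 0.63, 0.40 and 0.45 with slide means removed. Over all 15 pairs the median was 0.33, and it was 0.21 without Hypox 2, 0.11 without Norm 12 and Hypox 2, 0.17 with slide means removed, 0.80 when arrays were centred on their median and 0.07 in the deposited values. In the values reported, the median over all pairs of the 9135 genes with a value on every array was 0.002, and 5.18% of the pairs lay over 0.5. This background was not computed for median centring or for the deposited values. The points of each correlation share their array, its slide and its Cy3 pool, and the 8 genes were proposed with their likeness known, so no *P*-value is given.

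*Mal*, *S100b* and *Prx* were also alike within slides and within each group. With slide means removed, *S100b* and *Mal* correlated at 0.85, *Prx* and *S100b* at 0.83, and *Prx* and *Mal* at 0.81. Within the Norm arrays the same pairs gave 0.93, 0.87 and 0.89, and within the Hypox arrays 0.82, 0.69 and 0.76. Leaving out the 2 arrays farthest from the median of the first gene of the pair gave 0.84, 0.74 and 0.69. Of the 6 pairs among *Pmp22*, *Prx*, *S100b* and *Mal*, the median was 0.73 in the values reported, 0.80 with the scanner software's processed signals, 0.94 when arrays were centred on their median, 0.57 in the Cy5 channel alone and 0.65 in the deposited values. The 9 pairs with *Mbp* or *Sox10* had medians of 0.10, 0.44, 0.77, 0.25 and -0.07 in the same order, the highest where arrays were centred on their median. The likeness of all pairs of genes was computed in the values reported only, so no background stands beside the other medians.

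*Pmp22* belonged with the other 3 through its brightest probe. That probe correlated with its second probe at 0.50. The second correlated with *Mal* at 0.24, with *Prx* at 0.20 and with *S100b* at 0.15. On Norm 12 the 2 probes were at 0.18 and -0.57, the latter the lowest Norm value of that probe. Of the 6 genes, the brightest *Pmp22* probe varied most, with an SD of 0.53 over the 24 arrays, at the 96.4th percentile of all genes tested, and 42.2% of its variance lay between slides. *Mal* (SD 0.34) and *Prx* (0.34) lay at the 81.0th and 79.7th percentile, *S100b* (0.29) at the 70.6th, and *Mbp* (0.20) and *Sox10* (0.20) at the 28.0th and 24.8th.

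**Figure D3:**
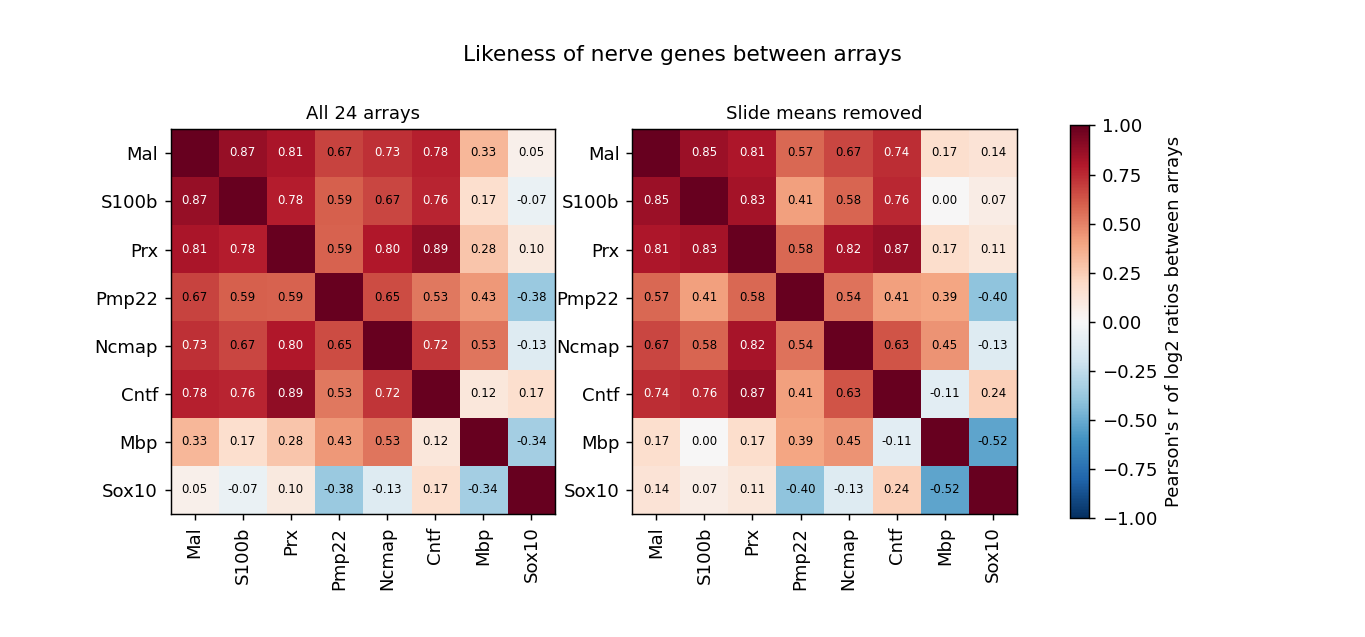
Pearson's r between arrays of the log2 ratios of 6 nerve genes, of the myelin gene *Ncmap* and of *Cntf*, the gene of a factor that Schwann cells hold, over all 24 arrays (left) and with slide means removed (right), from blue (negative) to red (positive). *Mal*, *S100b*, *Prx* and *Pmp22* form a red block with *Ncmap* and *Cntf*, both picked for their likeness to the mean of the nerve genes. *Sox10* stays outside it. The brightest *Mbp* probe lies at its edge, with 0.53 (left) and 0.45 (right) for *Ncmap* and 0.43 and 0.39 for *Pmp22*. On the right, *Pmp22* has 0.41 with *S100b* and 0.41 with *Cntf*.

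The mean of the standardized log2 ratios of the 6 genes gives 1 value an array, in units of each gene's SD. It ran from -0.79 in Norm 5 to 1.72 in Norm 12 in the Norm group, and from -1.40 in Hypox 2 to 0.85 in Hypox 5 in the Hypox group. Of 12 arrays, 4 Norm and 7 Hypox lay below 0, and the group means were 0.22 ± 0.62 and -0.22 ± 0.66 (SD, n = 12). Leaving each gene out of the mean in turn, *Mal* correlated with the mean of the other 5 at 0.90, *Prx* at 0.82, *S100b* at 0.74, *Pmp22* at 0.58, *Mbp* at 0.24 and *Sox10* at -0.16. The mean correlated with the brightness of the arrays (log2 of the mean Cy5 signal) at 0.39, and at -0.01 with slide means removed. For all genes, the lowest and highest decile of that correlation over all arrays were -0.41 and 0.43.

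Of 8 further myelin genes, 5 were tested, and the mean of their standardized values correlated with that of the nerve genes at 0.70, at 0.56 with slide means removed and at 0.63 without Norm 12 and Hypox 2. *Ncmap*, which codes for a protein of noncompact myelin, was the most alike, with a correlation of 0.82 with the mean of the nerve genes. Among all 9134 other genes, *Prx* ranked 2 by likeness to *Ncmap* (r = 0.80), *Mal* ranked 6 (0.73), *S100b* 25 (0.67) and *Pmp22* 32 (0.65). *Mbp* ranked 193 (0.53) and *Sox10* 6237 (-0.13). *Ncmap* was itself picked for its likeness to the mean of these genes, so high ranks were favoured in advance. *Cnp*, *Cd9* and *Tspan2*, with correlations of 0.37, 0.48 and 0.38 to the mean, and *Gjb1*, with 0.13, followed the nerve genes less.

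*Ncmap* was well above background on 7 Norm and 6 Hypox arrays. It spanned -0.86 in Norm 5 to 0.93 in Norm 12 on the Norm arrays (median 0.06) and -0.67 in Hypox 11 to 0.27 on the Hypox arrays (median -0.06). The groups overlapped, and all 12 Hypox arrays lay within the Norm range. Its log2 difference was -0.24 (SE 0.15, limma's unadjusted *P*-value 0.118, adjusted 0.535), lower on 5 of 6 slides. With the slide as a block the SE was 0.11 and limma's unadjusted *P*-value 0.047 (adjusted 0.345).

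**Figure D4:**
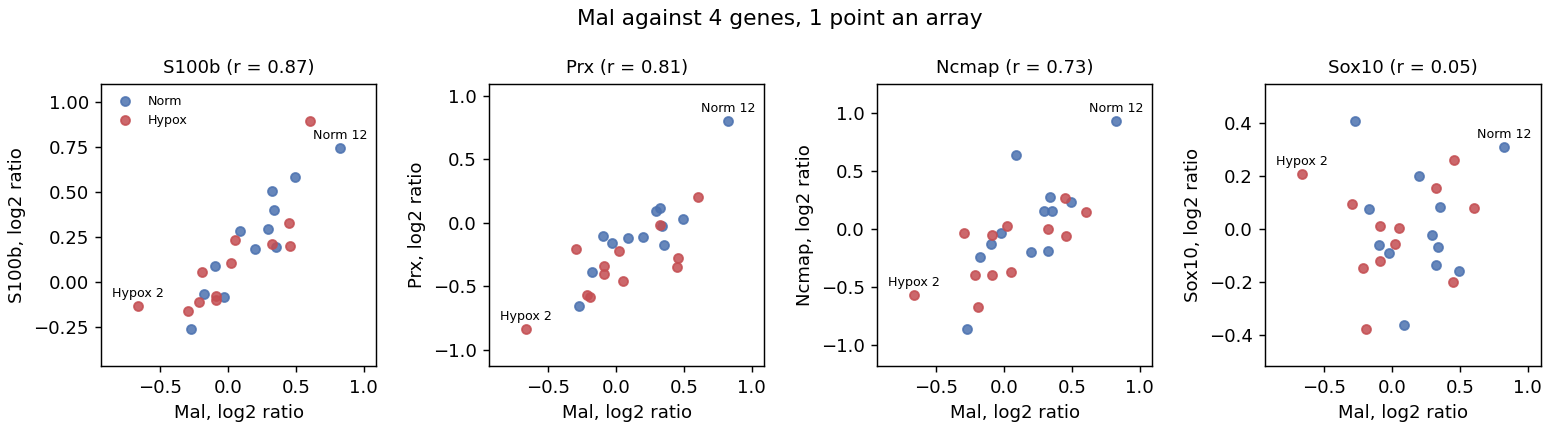
Log2 ratio of *Mal* (horizontal axis) against that of *S100b*, *Prx*, *Ncmap* and *Sox10* (vertical axes), 1 point an array, Norm in blue and Hypox in red. The first 3 genes rise with *Mal* (r = 0.87, 0.81 and 0.73), with Norm 12 at the upper right for *Prx* and *Ncmap*, and *Sox10* shows no such line (r = 0.05).

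The 10 genes reported here that were most like the mean of the nerve genes, by Pearson's r with slide means removed over 24 arrays, were *Plekha4* (0.90), *Gm11223* (0.86), *Scd1* (0.83), *Cmip* (0.80), *Atp2b1* (0.78), *Cntf* (0.78), *Ncmap* (0.77), *Katnal1* (0.77), *Gda* (0.76) and *Cidec* (0.76). Of these, *Ncmap* is a myelin gene, *Cntf* codes for ciliary neurotrophic factor, which Schwann cells hold, and *Cidec* is 1 of the adipocyte markers. Among all 9134 other genes, *Prx* ranked 1 by likeness to *Cntf* (0.89), *Mal* 4 (0.78), *S100b* 8 (0.76), *Pmp22* 177 (0.53), *Sox10* 2739 (0.17) and *Mbp* 3418 (0.12), where *Cntf* was itself picked for its likeness to the mean of these genes. *Cntf* spanned -0.57 in Norm 5 to 0.90 in Norm 12 on the Norm arrays (median 0.03) and -0.56 in Hypox 11 to 0.46 on the Hypox arrays (median -0.24), with all 12 Hypox arrays within the Norm range. Its log2 difference was -0.25 (SE 0.13, limma's unadjusted *P*-value 0.073, adjusted 0.460), lower on 5 of 6 slides. Without Norm 12 and Hypox 2, and with slide means left in, *Gm11223* (0.85), *Plekha4* (0.74), *Cntf* (0.72) and *Ncmap* (0.72) had the higher correlations with the mean. *Cidec* had 0.49, *Gda* 0.45, *Scd1*, which codes for stearoyl-CoA desaturase, 0.39 and *Atp2b1*, which codes for a calcium pump, 0.07.

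The wider lists of Schwann cell and nerve genes held few genes bright enough to test. Over the 7 lists that are not the 8 genes, 28 genes were tested, of which 2 lay below an unadjusted *P*-value of 0.05, the threshold of the methods, both lower, and 0 were called after Benjamini-Hochberg adjustment. Of all genes, 12.0% lay below the unadjusted threshold, 4.96% lower and 7.08% higher. After adjustment 32 of all genes were called (0.348%), of which 24 were lower (0.261%) and 8 higher (0.0871%). Of the 5 further myelin genes tested, 3 were lower and 2 higher in Hypox, with a median of -0.0046, and 0 lay below the unadjusted threshold by limma's test, or 1, *Ncmap*, with the slide as a block. Of 13 regulators of Schwann cells, 7 were tested, 5 lower and 2 higher, with a median of -0.04. *Jun*, which codes for a factor of the injury response of Schwann cells and is made by muscle fibers too, differed by -0.30 on the log2 scale (SE 0.10, limma's unadjusted *P*-value 0.0046, adjusted 0.198). *Tead1*, which codes for a factor of the Hippo pathway that muscle fibers also use, differed by -0.25 (SE 0.11, limma's unadjusted *P*-value 0.029, adjusted 0.342). Neither lay below the threshold in the deposited values (*Jun* -0.08, *P*-value 0.791, and *Tead1* -0.08, *P*-value 0.750, by limma), both were above 0 when arrays were centred on their median (0.10 and 0.11), and *Tead1* no longer lay below it without Norm 1, Norm 5, Hypox 1, Hypox 4 or Hypox 8. *Egr2*, *Erbb2*, *Erbb3*, *Sox2* and *Foxd3* did not pass the brightness limit.

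Genes of axon contact (6 of 13 tested, median -0.03), of myelin lipid synthesis (4 of 8, median -0.06), of nonmyelinating Schwann cells (2 of 10, median -0.11) and of the perineurium (3 of 5, median 0.05) had 0 below the unadjusted threshold by limma's test, and 0 after adjustment. Of 14 genes of axons and motor neurons, 8 were not well above background on any array and 2 were tested. *Snap25*, a gene of vesicle release, differed by -0.18 (SE 0.09, limma's unadjusted *P*-value 0.058) and *Sncg*, which codes for gamma-synuclein, by -0.17 (SE 0.10, *P*-value 0.102). *Sncg* correlated with the mean of the nerve genes at 0.61 and *Snap25* at 0.02. At the muscle side of the synapse, 7 of 11 genes were tested, 5 higher and 2 lower in Hypox, with a median of 0.09. Below the unadjusted threshold by limma's test lay 2, both higher, beside 7.08% of all genes, and 0 were called after adjustment. *Chrna1*, the receptor subunit for acetylcholine, differed by 0.30 (SE 0.11, limma's unadjusted *P*-value 0.012, adjusted 0.257) and *Musk*, the receptor kinase of synapse formation, by 0.29 (SE 0.12, *P*-value 0.021, adjusted 0.303). The mean of the synaptic genes correlated with that of the nerve genes at -0.34.

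Markers of other cells also differed between arrays. Of 8 adipocyte markers, 5 were tested, 5 of 5 lower in Hypox with a median of -0.24. Below the unadjusted threshold by limma's test lay 2, beside 4.96% of all genes that were lower, and 0 were called after adjustment. *Cfd*, which codes for adipsin, differed by -0.56 (SE 0.22, limma's unadjusted *P*-value 0.019, adjusted 0.290) and *Adipoq*, which codes for adiponectin, by -0.33 (SE 0.15, *P*-value 0.032, adjusted 0.355). Their mean of standardized values spanned -1.05 to 2.55 on the Norm arrays and -1.25 to 0.28 on the Hypox arrays. Norm 12 was the highest array, with the next at 0.92, and Hypox 2 the lowest. This mean correlated with that of the nerve genes at 0.65, at 0.71 with slide means removed and at 0.30 without these 2 arrays, beside 0.70, 0.56 and 0.63 for the further myelin genes. *Lep*, *Plin1* and *Lipe* did not pass the brightness limit. The part of adipose tissue in the difference of the nerve genes was not tested.

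The mean of 8 muscle fiber genes correlated with that of the nerve genes at -0.30, of 7 fibroblast genes at 0.35, of 6 endothelial genes at -0.22, of 2 leukocyte genes at -0.235 and of 3 red cell genes at -0.47. With slide means removed these were -0.07, 0.44, -0.21, -0.12 and -0.41 in that order. Without Norm 12 and Hypox 2, the fibroblast genes gave 0.07 and the red cell genes -0.54. Of the 8 muscle fiber genes, 2 were higher and 6 lower in Hypox, with a median of -0.23, beside -0.14 for the 6 nerve genes. The 3 red cell genes were higher, with a median of 0.15. In both lists 0 lay below the unadjusted threshold by limma's test. Of the 7 fibroblast genes, 4 were higher and 3 lower in Hypox, with a median of 0.05. Below the unadjusted threshold lay 2, both lower, beside 4.96% of all genes, and 0 were called after adjustment. The 2 were *Col1a2* (-0.40, SE 0.15, limma's unadjusted *P*-value 0.015, adjusted 0.275) of collagen I and *Dcn* (-0.37, SE 0.16, *P*-value 0.031, adjusted 0.352), the gene of decorin. In the deposited values these were -0.07 (*P*-value 0.833 by limma) and 0.05 (*P*-value 0.884), and both were above 0 when arrays were centred on their median. Of the 6 endothelial genes, 4 were higher and 2 lower in Hypox, with a median of 0.23. Below the unadjusted threshold lay 3, all higher, beside 7.08% of all genes, and 0 were called after adjustment. Among them were *Esam* (0.28, SE 0.08, limma's unadjusted *P*-value 0.0014, adjusted 0.121) and *Cldn5* (0.30, SE 0.10, *P*-value 0.0045, adjusted 0.198), both genes of cell contacts. Of 6 markers of melanocytes, which like Schwann cells come from the neural crest and express *Sox10*, 1 passed the brightness limit, *Mitf*, with a log2 difference of 0.12 (SE 0.15). Of 6 lung markers 1 was tested, *Sftpc*, and it was well above background on 4 arrays, with a log2 difference of 0.81 (SE 0.32).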

How the data were processed

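The deposited scanner output holds intensity values, a mean signal and a local background for every spot and channel, written by Agilent Feature Extraction 10.7.3.1. The authors also deposited a series table of normalized log2 values made with GeneMaths XT, whose scaling and use of the Cy3 channel stay unknown (every column has a median of 6.58). Which dye marks the sample follows the sample descriptions, as the dye labels of some Hypox samples differ. Control spots and 7260 flagged readings were left out. In R 4.3.3 with limma 3.58.1, signals were corrected by normexp (offset 50), normalized by loess within each array and averaged over the spots of a probe. Probes with a mean Cy5 signal over 2 times the mean background and at most 4 missing arrays numbered 14421, and each of 9186 genes was represented by its brightest such probe. The 12 Hypox arrays were set against the 12 Norm arrays with limma's moderated test without a block, adjusted after Benjamini-Hochberg. The limma step was tested on simulated data.

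The 8 genes, the gene lists and the alternatives were chosen with earlier results of these data known. Named beside the 8 genes are, within each list, genes among the 2 with the smallest *P*-value or the 2 most like the mean of the nerve genes, and the 10 genes reported here most like that mean; *Cnp*, *Cd9*, *Tspan2*, *Gjb1*, *Ermn*, *Mitf* and *Sftpc* were named after their values were seen, as were genes named only as dim. Of the genes in the lists, 2 are not reported here and were left out of the lists and of the 10 genes. Slides were read from the scanner output. Symbols were matched through RefSeq, for all but 24300 of 55681 probes. The number of arrays limits the precision, and the offset compresses the ratios of dim probes. Promoter windows came from RefSeq (GRCm38.p6) and probe positions from the array annotation (mm9). Figures were drawn with Python 3.11.15 and matplotlib 3.10.9.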

Additional observations from a re-analysis of the deposited data

How the results depend on the processing

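Of all genes, 32 were called after adjustment and 1106 without it, and of the 28 genes of the other nerve lists 2 without it. The 6 nerve genes, of which no call is counted, had a median log2 difference of -0.14 and a median correlation of 0.33. In that order of the 3 counts, the median difference and the median correlation, the scanner software's processed signals gave 61, 1019, 4, -0.32 and 0.49. Centring on the median in place of loess gave 0, 32, 0, 0.02 and 0.80. The Cy5 channel alone gave 12, 729, 3, -0.11 and 0.29, and the deposited values 1, 489, 0, -0.18 and 0.074. Without a filter on dim probes the counts were 8, 1939 and 7 over more genes, and with signals over 4 times the background, which leaves *Pmp22* and *Prx*, the median difference was -0.34 and the correlation 0.59. The slide as a block gave 62, 1288 and 3, and slide means removed a correlation of 0.17. Array weights gave 265, 1715, 4 and -0.12. The methods' t-test gave 1106 at the methods' threshold, 9 after Benjamini-Hochberg and 2 list genes. Leaving out each array gave ranges of 4 to 51, 965 to 1280, 1 to 4, -0.20 to -0.09 and 0.21 to 0.40, with 4 genes after adjustment without Hypox 7, 1 list gene without Norm 1, Hypox 1, Hypox 4 or Hypox 8, and 4 without Hypox 5 or Hypox 12. Alternatives chosen after seeing the data were leaving out slide 1, with 25, 1267, 4, -0.14 and 0.30, leaving out Norm 12 and Hypox 2, with a correlation of 0.11, and another form of the brightness limit, the mean of the ratios, with 31, 1112, 2, -0.14 and 0.33.

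The replicate number as a block gave 11 genes after adjustment, 1181 without it and 3 list genes. The numbers did not pair the mice, as 3 of 12 same-numbered pairs had correlated deviations over 0.1 (range -0.18 to 0.43) and 2 arrays were most like their own number.

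The log2 difference changed sign when arrays were centred on the median for the nerve genes *Mbp* (0.13), *Sox10* (0.09) and *S100b* (0.04), and for *Jun* (0.10), *Tead1* (0.11), *Snap25* (0.17), *Sncg* (0.094), *Elovl1* (0.14), *Dhh* (0.050), *Cidec* (0.11), *Plekha4* (0.025), *Cmip* (0.10), *Atp2b1* (0.033), *Col1a2* (0.10), *Dcn* (0.19), *Katnal1* (0.10) and *Gda* (0.12). It changed sign in the deposited values for *Nab2* (-0.041) and *Dcn* (0.053) and with the mean of a gene's probes for *Cmip* (0.0066). *Mbp*, at -0.00079 as reported, also changed sign with the processed signals (0.14), with array weights (0.02) and without any of 9 arrays, and *Sox10* without any of 3. The cause was not tested.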
